A study of Mus musculus with 6 samples.

Results

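The genes described here encode cytosolic translation elongation factors of mouse and the kinase that restrains the factor eEF2, namely Eef1a1, Eef1a2, Eef1b2, Eef1d, Eef1g, Eef2 and Eef2k. They were taken by symbol and are 7 of 24525 gene rows in a table of heart RNA abundance. All 7 passed the filter that left 14541 genes for testing (at least 1 TPM in at least 3 libraries; TPM is a relative abundance that allows for transcript length and in which all genes of a library share the same total). The 6 RNA-seq libraries came from whole heart tissue, at an age of 3 to 6 months. In the 3 libraries labelled double knockout (DKO; replicates 7, 8 and 9), the labels give the animals as Mbnl1-/-, a constitutive null genotype, and as Mbnl2cond/cond with Myh6-Cre, a Cre recombinase driven by a promoter active in cardiomyocytes, so that Mbnl2 was targeted in those cells; the genotype tag of replicate 7 alone reads WT. The other 3 libraries were labelled wild type (WT; replicates 4, 5 and 6), and the labels do not say whether these mice carried Cre or a conditional allele. Values below are mean ± SD of n = 3 libraries in each group unless stated. MBNL1 and MBNL2 are RNA-binding regulators of splicing whose loss of function is central to myotonic dystrophy.

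During elongation, eEF1A bound to GTP brings each aminoacyl-tRNA to the ribosome. The eEF1B complex then exchanges the spent GDP for GTP, and eEF2 moves the ribosome to the next codon. In most tissues eEF1A is made from Eef1a1. Skeletal muscle, heart and neurons of adult mammals also use the closely related Eef1a2, which replaces Eef1a1 in mouse skeletal muscle and neurons after birth.

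The members lie on 7 chromosomes of GRCm38 (GENCODE M21 gene bounds). Eef1a1 lies on chromosome 9 from 78478449 to 78489151, and Eef1a2 on chromosome 2 from 181147653 to 181157014. The subunit genes Eef1b2, Eef1d and Eef1g lie on chromosome 1 from 63176825 to 63180486, chromosome 15 from 75894205 to 75909556 and chromosome 19 from 8967041 to 8978479. Eef2 lies on chromosome 10 from 81176631 to 81182498, and Eef2k on chromosome 7 from 120842831 to 120907450.

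Because the ratio of Eef1a1 to Eef1a2 rests on telling reads of the pair apart, the first 120 bases of both coding sequences are shown from the GENCODE M21 transcripts. Capitals mark the 18 positions at which they differ.
Eef1a1: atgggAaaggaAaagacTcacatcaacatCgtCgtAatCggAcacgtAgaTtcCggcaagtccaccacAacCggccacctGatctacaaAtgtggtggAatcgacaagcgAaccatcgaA
Eef1a2: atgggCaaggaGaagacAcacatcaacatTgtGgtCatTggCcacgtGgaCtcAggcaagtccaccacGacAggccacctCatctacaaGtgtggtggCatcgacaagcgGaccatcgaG
Compared base by base from the start codon, 1108 of 1386 coding bases (79.9%) were the same in both genes, and 426 of 462 codons (92.2%) gave the same residue. The longest identical stretch was 23 bases, so the coding sequences share none of their 31-base words, and a read of 75 bases within them spans at least 1 difference. Pseudogenes are closer. Of the 31-base words of the Eef1a1 coding sequence, 88.0% also occur in transcripts of other genes in GENCODE M21, 22 genes in all, whereas for Eef1a2 the share is 0%. It was 1217 of 1281 words for Eef1g, and 27.0% for Eef2, 24.0% for Eef1b2, 17.2% for Eef1d and 3.50% for Eef2k. Of all these look-alikes only Gm6548, a transcribed pseudogene that holds 25.7% of the Eef1a1 words, has a row in the deposited table, and the levels of Eef1a1 and Eef1g are uncertain to the extent that reads of such copies are counted with them.

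Among the 14541 genes tested, 10.7% differed between the libraries labelled DKO and WT (limma, Benjamini-Hochberg (BH) adjusted p under 0.05), 6.51% higher and 4.22% lower in DKO. Mbnl1 had 102, 108 and 107 TPM in DKO libraries 7, 8 and 9 against 161, 159.8 and 145 TPM in WT libraries 4, 5 and 6. Mbnl2 had 227, 239.7 and 245 TPM in DKO against 189, 168 and 149 TPM in WT, so it was higher where the genotype names a loss, while Mbnl1 kept 0.683 of its WT mean. Gene-level sums therefore show neither loss in full, and directions below rest on the labels. The title and source name of DKO 7 go against its WT tag. Its Mbnl1 and Mbnl2 values also lay near those of DKO 8 and DKO 9 and outside the range of the WT libraries. Xist reached 152 TPM in DKO 7 and 174 TPM in DKO 8, while DKO 9 and all 3 WT libraries had Y-linked transcripts instead. Cardiomyocyte markers, 10 of 10 tested, summed to between 74487 and 75139.6 TPM in DKO and between 76957 and 79087.5 TPM in WT, so the libraries carry the RNA of heart muscle that their labels name. Skeletal muscle fibre markers summed to at most 12.5 TPM in DKO and 15.3 TPM in WT, and neuronal markers to at most 9.15 TPM in DKO and 9.36 TPM in WT.

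Eef1a2 was the most abundant member in both groups, ahead of Eef2 and Eef1a1, whose libraries overlapped each other in DKO and in WT. Eef1g, Eef1b2, Eef1d and Eef2k followed in that order in both groups. Apart from Eef2 and Eef1a1, each neighbour in this order was separated from the next in all 3 libraries of a group, with the smallest margins between Eef1a2 and Eef2 in DKO, where the lowest Eef1a2 value was 1129.9 TPM and the highest Eef2 value 1109.6 TPM, and between Eef1b2 and Eef1d in WT, at 109.6 and 105 TPM. The 7 genes together took 3862, 3875 and 3711 TPM in DKO 7, 8 and 9 and 3407, 3148 and 3377 TPM in WT 4, 5 and 6. The DKO sums were thus all above the WT sums, 1.15 times as high on average (permuted exactly over the libraries, two-sided exact p = 0.1, the smallest the design allows; BH adjusted p = 0.15 over the 9 sums and ratios tested).

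**Figure D1:**
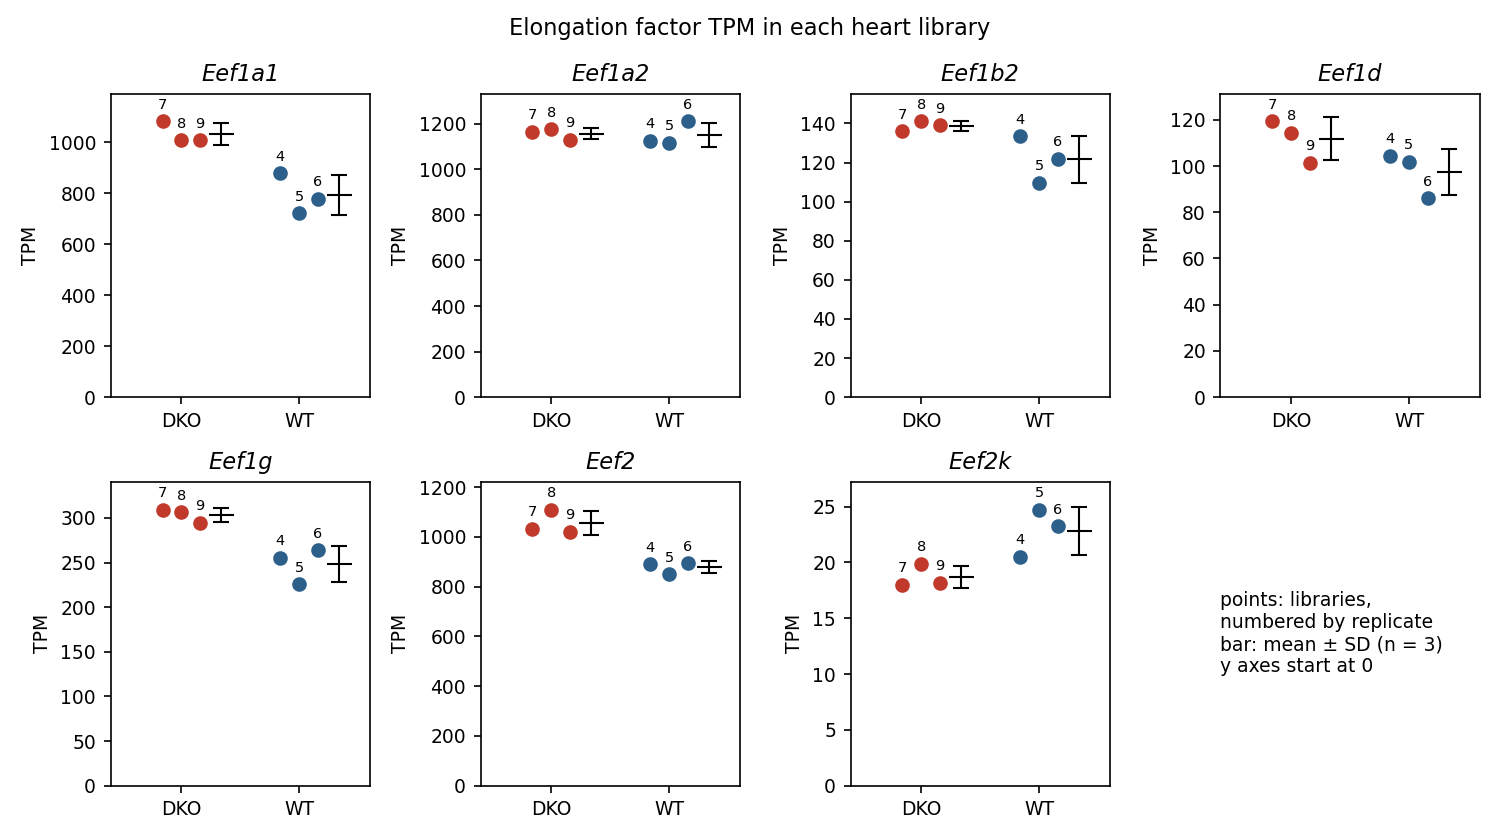
TPM of each of the 7 elongation factor genes (y axes, from 0) in the DKO and WT heart libraries (x axes); points are libraries numbered by replicate and bars are mean ± SD of 3 libraries. Eef1a1, Eef1b2, Eef1g and Eef2 were higher in every DKO library than in every WT library, Eef2k was lower, and Eef1a2 and Eef1d overlapped.

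Eef1a1, the broadly used eEF1A gene, rose. It had 1082, 1007 and 1007 TPM in DKO 7, 8 and 9 against 878, 721 and 777 TPM in WT 4, 5 and 6. Every DKO library lay above every WT library, at 1032 ± 43.4 TPM in DKO and 792 ± 79.5 TPM in WT, a ratio of 1.30. The difference on the log2(TPM + 1) scale was 0.39 (SE 0.08; 95% interval 0.18 to 0.59; limma, BH adjusted p = 0.0348). The call was lost when DKO 7, DKO 8, DKO 9, WT 5 or WT 6 was left out (limma, BH adjusted p between 0.0763 and 0.0973) and held without WT 4 (0.0260).

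Eef1a2, the muscle and neuronal eEF1A gene, had 1164, 1177 and 1129.9 TPM in DKO 7, 8 and 9 and 1125, 1116 and 1212 TPM in WT 4, 5 and 6. The groups overlapped, at 1157 ± 24.2 TPM in DKO and 1151 ± 52.8 TPM in WT. On the log2 scale they differed by 0.0081 (SE 0.06; limma, BH adjusted p = 0.952), with a 95% interval of -0.13 to 0.15, which spans 0.911-fold to 1.11-fold of WT, and it lay between -0.027 and -0.0097 when the libraries were scaled in 3 other ways. Among the members, Eef1a2 also had the smallest difference in size; 97.5% of tested genes had a larger one.

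The ratio of Eef1a1 to Eef1a2 was therefore carried by Eef1a1. It was 0.930, 0.856 and 0.891 in DKO 7, 8 and 9 and 0.780, 0.646 and 0.641 in WT 4, 5 and 6. All 3 DKO ratios lay above all 3 WT ratios and all 6 lay below 1, so Eef1a2 stayed the more abundant of the pair in every library. The mean ratio was 0.892 ± 0.0367 in DKO and 0.689 ± 0.0788 in WT, a log2 difference of 0.38 (exact two-sided permutation test, p = 0.1, the smallest the design allows; BH adjusted p = 0.15). As a share of the pair, Eef1a1 made up 47.1 ± 1.03% in DKO and 40.7 ± 2.69% in WT. WT 4 stood nearest to the DKO libraries, and without it the log2 difference of the ratio was 0.47. In the libraries with Y-linked transcripts alone, which hold 1 DKO library (DKO 9, ratio 0.891) and the 3 WT libraries, it was 0.38. With DKO 7 counted as WT it was 0.24 (exact permutation test, p = 0.267).

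The sum of Eef1a1 and Eef1a2 was 2246, 2184 and 2137 TPM in DKO 7, 8 and 9 and 2003, 1837 and 1989 TPM in WT 4, 5 and 6. The DKO sums did not overlap the WT sums and averaged 2189 ± 55.0 TPM against 1943 ± 92.2 TPM, 1.13 times as high (exact two-sided permutation test, p = 0.1; BH adjusted p = 0.15). The pseudogene row Gm6548 had 14.6, 10.8 and 8.96 TPM in DKO 7, 8 and 9 against 4.69, 4.04 and 7.19 TPM in WT 4, 5 and 6. It rose by 0.99 on the log2 scale (SE 0.24; limma, BH adjusted p = 0.0478), a call that held in 1 of the 6 fits with a library left out. Adding it to Eef1a1 gave 0.38 for the log2 difference of the ratio, as without it.

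**Figure D2:**
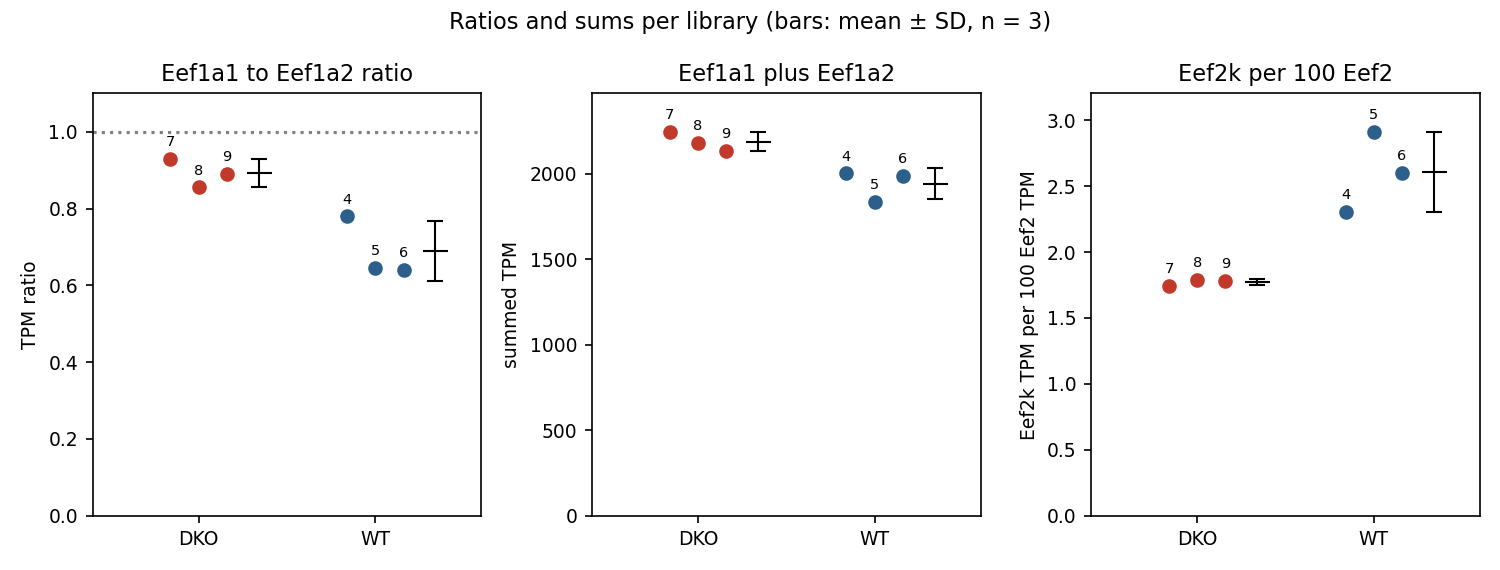
The TPM ratio of Eef1a1 to Eef1a2, the summed TPM of the pair, and Eef2k TPM per 100 Eef2 TPM (y axes, from 0) in DKO and WT libraries (x axes); points are libraries numbered by replicate, bars are mean ± SD of 3 libraries, and the dotted line marks equal amounts. In all 3 panels the DKO libraries do not overlap the WT libraries, and every Eef1a1 to Eef1a2 ratio lies below 1.

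The genes of the eEF1B complex had higher means in DKO, and none passed the threshold over all genes. Eef1g encodes the gamma subunit, which holds the complex together. It had 309, 306 and 295 TPM in DKO 7, 8 and 9 against 256, 226 and 264 TPM in WT 4, 5 and 6, with no overlap. The log2 difference was 0.29 (SE 0.07; 95% interval 0.11 to 0.47; limma, BH adjusted p = 0.0534), and it stayed uncalled in 16 of 17 alternatives, with adjusted p of up to 0.594; it passed at 0.27 (0.0348) once structural RNA, short RNA and haemoglobin were taken out of the totals.

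Eef1b2 encodes the beta subunit, a guanine nucleotide exchange factor. It had 136, 141 and 139 TPM in DKO 7, 8 and 9 and 134, 109.6 and 122 TPM in WT 4, 5 and 6. The DKO libraries lay above the WT libraries, though the lowest of the DKO values and the highest of the WT values nearly touched. On the log2 scale they differed by 0.19 (SE 0.08; 95% interval -0.0041 to 0.39; limma, BH adjusted p = 0.194). Eef1d encodes the delta subunit, a further exchange factor, and had 119, 114 and 102 TPM in DKO 7, 8 and 9 and 105, 102 and 86.1 TPM in WT 4, 5 and 6. Its groups overlapped and differed by 0.20 on the log2 scale (SE 0.10; 95% interval -0.043 to 0.44; limma, BH adjusted p = 0.267).

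Proportions within the complex overlapped between the groups. Eef1g over Eef1b2 was 2.19 ± 0.0803 in DKO and 2.05 ± 0.125 in WT (exact permutation test, p = 0.2), and Eef1b2 over Eef1d was 1.25 ± 0.117 in DKO and 1.26 ± 0.171 in WT (exact permutation test, p = 1). Against the Eef1a pair, Eef1g was 0.139 ± 0.00136 in DKO and 0.128 ± 0.00492 in WT, with no overlap (exact permutation test, p = 0.1; BH adjusted p = 0.15).

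Eef2, the translocation factor, rose. It had 1033, 1109.6 and 1020.5 TPM in DKO 7, 8 and 9 against 889, 849 and 893 TPM in WT 4, 5 and 6. No DKO library overlapped a WT library, at 1054 ± 48.3 TPM in DKO and 877 ± 24.3 TPM in WT, a ratio of 1.20. The log2 difference was 0.26 (SE 0.06; 95% interval 0.12 to 0.41; limma, BH adjusted p = 0.0390), and the call was lost whichever of the 6 libraries was left out (limma, BH adjusted p between 0.0761 and 0.112). Relative to the Eef1a pair, Eef2 was 0.482 ± 0.0244 in DKO and 0.452 ± 0.00952 in WT, and these ratios overlapped (exact permutation test, p = 0.2).

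Eef2k encodes the calmodulin-dependent kinase that phosphorylates eEF2 and slows elongation. It was the least abundant member and the only one with a lower mean in DKO, with 18.0, 19.9 and 18.2 TPM in DKO 7, 8 and 9 against 20.5, 24.7 and 23.2 TPM in WT 4, 5 and 6. The groups did not overlap, but the log2 difference of -0.27 (SE 0.10; 95% interval -0.52 to -0.025) did not pass (limma, BH adjusted p = 0.149). Per 100 TPM of Eef2 there were 1.74, 1.79 and 1.78 TPM of Eef2k in DKO 7, 8 and 9, against 2.30, 2.91 and 2.60 TPM in WT 4, 5 and 6. This ratio was 0.680 of WT on average and nearly constant over the DKO libraries (1.77 ± 0.0243 in DKO and 2.61 ± 0.304 in WT; exact two-sided permutation test, p = 0.1; BH adjusted p = 0.15). Every DKO library was lower in Eef2k and higher in Eef2 than every WT library. The ratio therefore could not overlap, and its p-value adds no support.

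In all, 2 of the 7 members, Eef1a1 and Eef2, were called higher and 0 lower, beside 6.51% of all tested genes higher and 4.22% lower. At an unadjusted p under 0.05 there were 4, with Eef1g and Eef2k added. In 4 members every DKO library lay above every WT library, and in 1 below, beside 19.1% and 13.8% of all tested genes. The median log2 difference was 0.20 over the members and 0.03 over all tested genes. A term for the sex-linked transcripts takes up DKO 7 and DKO 8, the libraries with Xist, so that the difference of DKO from WT then rests on DKO 9 alone. In that fit Eef1a1 had a log2 difference of 0.35 (limma, BH adjusted p = 0.283) and Eef2 one of 0.22 (0.333), and no member was called. With DKO 7 counted as WT no member was called either, with 0.24 for Eef1a1 (limma, BH adjusted p = 0.618) and 0.22 for Eef2 (0.525).

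**Figure D3:**
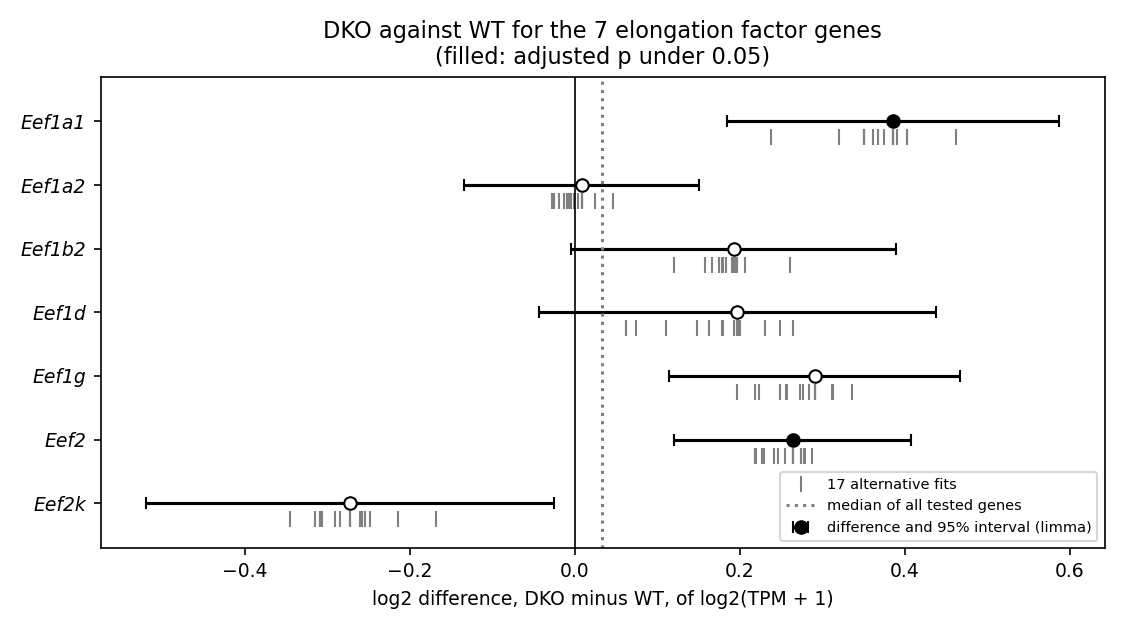
Difference between DKO and WT on the log2(TPM + 1) scale (x axis) for the 7 genes (y axis) with 95% intervals; filled points passed the BH adjusted threshold of 0.05, grey ticks are the differences under 17 alternative fits, and the dotted line is the median of all tested genes. Intervals of Eef1a1, Eef1g and Eef2 lie above 0, that of Eef2k below it, and that of Eef1a2 spans it.

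Genes that work next to the elongation factors were read from lists of their pathway. Their counts stand beside 10.7% of all tested genes called, a share at which 0 calls in a short list says little. Of 17 tested accessory and modifying enzymes of elongation, such as those that build the diphthamide of eEF2 or the hypusine of eIF5A, 0 were called (limma; 1 had an unadjusted p under 0.05), with a median log2 difference of 0.06. Eif5a, which helps stalled ribosomes on, had 301 ± 14.0 TPM in DKO and 268 ± 10.03 TPM in WT (limma, BH adjusted p = 0.143). Dohh had 42.5 ± 4.34 TPM in DKO and 37.2 ± 3.29 TPM in WT, and Dph1 11.5 ± 1.25 TPM in DKO and 9.54 ± 1.75 TPM in WT. Of 20 cytosolic aminoacyl-tRNA synthetases, which charge the tRNAs that eEF1A carries, 0 were called (limma; 4 had an unadjusted p under 0.05), with a median of 0.13. The nearest were Mars (38.9 ± 2.95 TPM in DKO and 31.9 ± 1.84 TPM in WT), Kars (96.3 ± 5.55 TPM in DKO and 82.4 ± 3.42 TPM in WT) and Qars (50.7 ± 1.40 TPM in DKO and 43.7 ± 2.40 TPM in WT). Among 8 termination and ribosome rescue genes 0 were called (limma; 0 had an unadjusted p under 0.05), with Etf1 at 88.8 ± 2.55 TPM in DKO and 80.5 ± 5.94 TPM in WT, Hbs1l at 64.4 ± 3.78 TPM in DKO and 59.4 ± 0.742 TPM in WT and Gspt1 at 38.0 ± 1.18 TPM in DKO and 40.7 ± 0.541 TPM in WT.

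Of 14 genes for regulators of eEF2 kinase or of eEF2 phosphorylation, 0 were called (limma; 2 had an unadjusted p under 0.05), with a median log2 difference of 0.06; 1 was called with a filter of 5 TPM, with quantile scaling and with the totals rescaled as for Eef1g, and 2 with array weights. The catalytic subunit of protein kinase A, Prkaca, had 309.5 ± 9.19 TPM in DKO and 265 ± 6.82 TPM in WT (limma, BH adjusted p = 0.0501). Ppp2ca, the catalytic subunit of the phosphatase that acts on eEF2, had 230.0 ± 3.89 TPM in DKO and 193 ± 11.4 TPM in WT (limma, BH adjusted p = 0.0518). Rps6ka3, a kinase that inhibits eEF2 kinase, had 30.2 ± 0.584 TPM in DKO and 27.2 ± 1.16 TPM in WT. The mitochondrial elongation factors, which serve the separate ribosomes of that organelle, had a median of -0.18, and 0 of 5 were called (limma; 2 had an unadjusted p under 0.05). With median-ratio scaling 1 of them was called. Tufm had 196 ± 8.95 TPM in DKO and 223 ± 7.06 TPM in WT, Tsfm 41.5 ± 4.26 TPM in DKO and 50.3 ± 4.03 TPM in WT, and Gfm2 45.2 ± 5.08 TPM in DKO and 51.9 ± 4.52 TPM in WT.

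Of 39 cytosolic initiation factors 4 were called higher and 3 lower, with a median log2 difference of 0.08. That is 17.9% of the list called, beside 10.7% of all tested genes. Eif4ebp1, which encodes a repressor of cap-dependent initiation, rose to 150.1 ± 11.1 TPM in DKO, against 92.1 ± 5.44 TPM in WT (limma, BH adjusted p = 0.00588). Eif1, a factor of start codon selection, fell to 638 ± 28.6 TPM in DKO, against 888 ± 16.7 TPM in WT (0.00673). Eif4a2, a helicase of the cap-binding complex, fell to 226 ± 6.54 TPM in DKO, against 293 ± 6.53 TPM in WT (limma, BH adjusted p = 0.0110). The other calls, named after their values were seen, were Eif4e, the cap-binding protein, lower at 44.3 ± 2.33 TPM in DKO and 61.5 ± 1.29 TPM in WT, and the eIF3 subunits Eif3a, Eif3e and Eif3h, higher by 0.28, 0.31 and 0.33 on the log2 scale. The calls of Eif3a and Eif3e were lost in each of the 6 fits that left out 1 library, and that of Eif3h in 5 of them; Eif1, Eif4a2, Eif4e and Eif4ebp1 kept theirs in all 6. With the sex-linked term these 4 lost their calls (limma, BH adjusted p = 0.102, 0.152, 0.162 and 0.0702) at log2 differences of -0.42, -0.33, -0.38 and 0.74, and no initiation factor was called with DKO 7 counted as WT.

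Cytosolic ribosomal protein genes were called in 58 of 79 cases (73.4%, beside 10.7% of all tested genes), all higher. Their median log2 difference was 0.37. In vertebrate cells their mRNAs share a pyrimidine tract at the start with those of eEF1A1 and eEF2. Which of the members carry this tract was not examined here. Rpl3 rose to 439 ± 34.1 TPM in DKO, against 192 ± 22.8 TPM in WT (limma, BH adjusted p = 0.00289). Rps12 rose to 946 ± 17.7 TPM in DKO, against 685 ± 16.3 TPM in WT, and Rpl12 to 738 ± 21.9 TPM in DKO, against 529.6 ± 15.7 TPM in WT. The Eef1a1 difference of 0.39 lay near this list's median, and those of Eef2 and Eef1g below it. With 1 library left out between 24 and 41 ribosomal protein genes were called, the lowest without DKO 8 (29 without DKO 7, 33 without WT 4, 30 without WT 5 and 30 without WT 6). With the sex-linked term, which leaves DKO 9 alone against WT, 0 were called (limma), while 78 of 79 differences stayed positive with a median of 0.30, and Rpl3 differed by 1.15, Rps12 by 0.45 and Rpl12 by 0.46 on the log2 scale. With DKO 7 counted as WT 0 were called as well, with 78 of 79 positive and a median of 0.24.

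**Figure D4:**
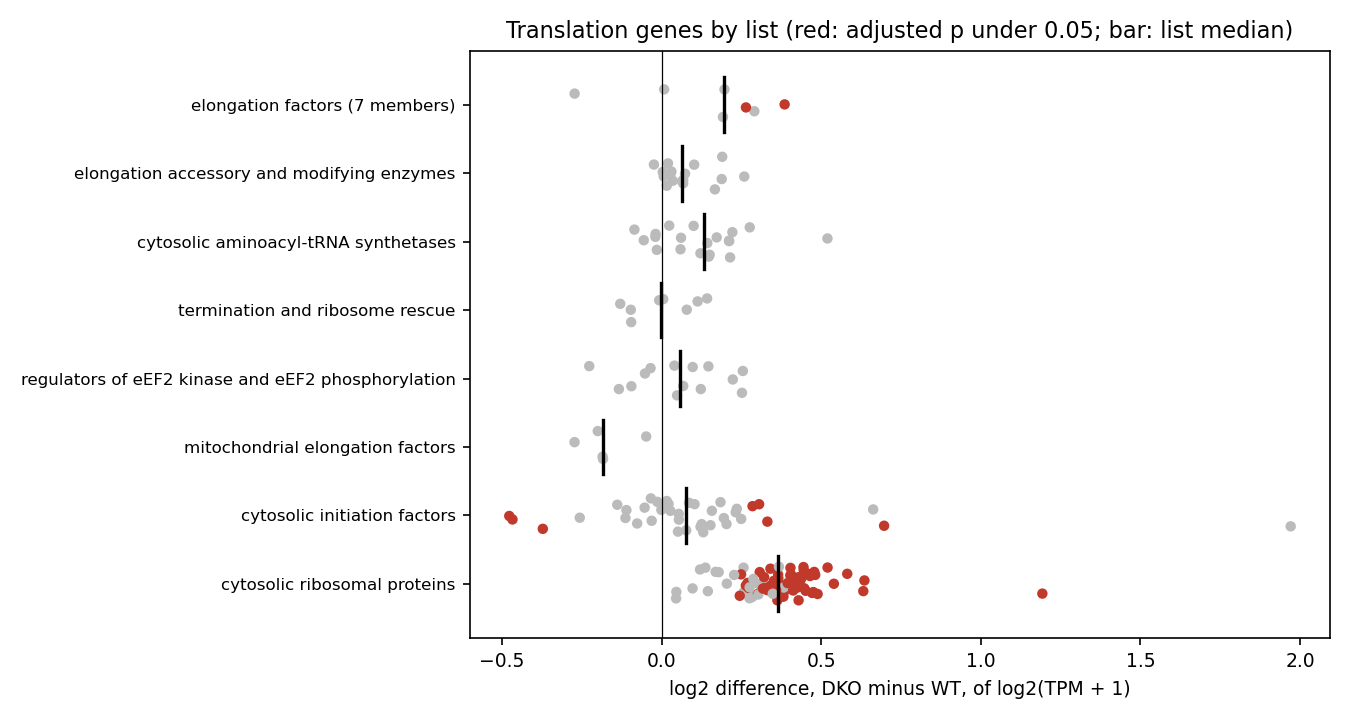
Difference between DKO and WT on the log2(TPM + 1) scale (x axis) for each tested gene of the 7 elongation factor members and of 7 translation lists (y axis); red points passed the BH adjusted threshold of 0.05 and black bars are list medians. Ribosomal protein genes lie above 0, with a median of 0.37 against 0.20 for the members.

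Likeness to the pair was measured over the 6 libraries as the root mean square difference between 2 genes' log2(TPM + 1) values, each centred on its own mean. It was taken among 8724 other tested genes with a mean of at least 10 TPM. Predicted genes, RIKEN clones, pseudogenes and short RNA rows were left out. The 5 genes nearest to Eef1a1 were Cav3, the muscle caveolin (0.031), Rpl5, a protein of the large ribosomal subunit (0.032), Serp1, a protein of the endoplasmic reticulum (0.034), Hexa, a lysosomal hexosaminidase subunit (0.048), and Hif1a, a transcription factor of the hypoxia response (0.049), against a median of 0.257 over all genes compared. Picked as the smallest distances, they lie below that median by construction. Their higher values in DKO follow from the same choice. Cav3 had 83.2, 79.4 and 81.6 TPM in DKO 7, 8 and 9 against 70.4, 58.8 and 62.7 TPM in WT 4, 5 and 6. Among the members, Eef1g came 75th in nearness to Eef1a1 (0.084), Eef2 260th (0.109), Eef1b2 269th (0.109), Eef1d 886th (0.149), Eef1a2 2749th (0.213) and Eef2k 7166th (0.372). The genes nearest to Eef1a2 were Prepl (0.014), Sppl3 (0.016), Mbd5 (0.019), Clptm1l (0.020) and Ptpn2 (0.025), against a median of 0.161. All of them were nearly flat over the 6 libraries, which follows from their choice by likeness to Eef1a2.

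Markers of other cell types moved between the same libraries, and their part in the differences above was not tested. Of the 22 marker calls counted below, 8 held in all 6 fits that left out 1 library, and 0 held with the sex-linked term or with DKO 7 counted as WT (limma). In bulk tissue, fewer cells of a type and less RNA per cell cannot be told apart. The counts called stand beside 6.51% of all tested genes higher and 4.22% lower. Macrophage markers, 5 higher and 1 lower of 10 tested, summed to between 652 and 896 TPM in DKO and between 405 and 559 TPM in WT. Fibroblast markers, 5 higher and 0 lower of 11, summed to between 2029 and 2592 TPM in DKO and between 1976 and 2042 TPM in WT. Endothelial markers, 0 higher and 3 lower of 10, summed to between 759 and 850.5 TPM in DKO and between 838 and 1010.2 TPM in WT. Markers of smooth muscle cells and pericytes, 1 higher and 2 lower of 9, summed to between 692 and 885 TPM in DKO and between 719.6 and 765 TPM in WT, and cardiomyocyte markers gave 0 higher and 3 lower of 10. Lymphocyte and neutrophil markers, 3 of 8 tested and 1 lower, summed to between 15.3 and 55.9 TPM in DKO and between 9.22 and 13.2 TPM in WT. The other 2 tested markers had a positive log2 difference and were not called. All 3 had an unadjusted p under 0.05 (limma), and their median log2 difference was 2.13. Erythroid markers, 0 of 5 called, were all 5 lower in DKO at an unadjusted p under 0.05 (limma), with a median log2 difference of -1.88. They summed to between 1781 and 6763 TPM in DKO and between 6042 and 38458 TPM in WT, with the highest sum in WT 5. Atrial markers, 1 lower of 7, summed to between 2486 and 4201 TPM in DKO and between 405 and 6742 TPM in WT. The WT library with the highest sum was WT 4, which also had the highest Eef1a1 value and Eef1a1 to Eef1a2 ratio in WT. In DKO the order was the reverse: DKO 7 had the highest Eef1a1 value and ratio but the lowest atrial sum. As to other tissues that use Eef1a2, 0 of the 2 tested skeletal muscle markers and 0 of the 2 tested neuronal markers were called, and Myh1, Myh2 and Ryr1 of the 9 skeletal muscle markers and Snap25, Syt1, Rbfox3 and Elavl4 of the 6 neuronal markers stayed under 1 TPM in all 6 libraries.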

How the data were processed

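Per the labels, total RNA from heart tissue was sequenced from strand-specific libraries with 2 reads of 75 bases per fragment. The authors deposited 1 table of TPM values, 1 per gene and library. The submitters' processing notes name bcl2fastq, kallisto 0.44.0 and mm10; which annotation was used, and how transcripts became genes, is not given in the sources used here. Library totals lay between 999963 and 999991 TPM, and 14084 to 14623 genes reached 1 TPM. TPM keeps no counts, so the depth is unknown. A change in abundant RNAs shifts all other TPM values.

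Groups follow the titles. Separate animals are not stated, so p-values measure a spread between libraries that may be technical. The genes that passed the filter (1 TPM or more in 3 or more libraries) were fitted with limma 3.58.1 (eBayes with trend, R 4.3.3) on log2(TPM + 1), which understates changes of low genes, with BH adjustment over all 14541 genes. The fit was tested on simulated data with independent errors and planted changes larger than the difference of any member. That test does not bear on changes as small as those of the members. Members, lists and the naming rule were chosen with earlier results of these data known. Named genes are the members, the 3 genes with the smallest p in each of 7 pathway lists and the 5 nearest to each Eef1a gene; Gm6548, and the initiation factors so marked, were chosen after their values were seen. Older symbols were matched through RefSeq synonyms. Coding sequences and 31-base words came from GENCODE M21 (GRCm38), which may differ from the authors' annotation. Alternatives were a pseudocount of 0.1 (1 for the ratio), no filter, a stricter filter (5 TPM), scaling by median ratios, quantile scaling, totals without structural RNA, short RNA and haemoglobin, no trend, array weights, DKO 7 counted as WT, leaving out 1 library at a time, a term for sex-linked transcripts and a fit of only those libraries that have Y-linked transcripts; adding Gm6548 to Eef1a1 was chosen after seeing the data.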

Additional observations from a re-analysis of the deposited data

How the results depend on the processing

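With 3 libraries a group, calls near the threshold were not stable. The number of genes called, 1560, was 1 with replicate 7 as WT, 92 with the term for sex-linked transcripts, 29 in the fit of only the Y-linked libraries and 628 to 876 with 1 library left out. The sex-linked term and the Y-linked fit both set DKO 9 alone against WT, and DKO 9 is assumed to vary like the WT libraries. Members called higher, 2 as reported above, were 0 without a filter, with median-ratio scaling, without trend, with replicate 7 as WT, with the sex-linked term and in the Y-linked libraries, and 0 to 1 with 1 library left out; called lower, they were 0 in every fit (limma). Calls over the 7 pathway lists, 65, were 27 without trend, 0 with replicate 7 as WT, 0 with the sex-linked term, 0 in the Y-linked libraries and 28 to 46 with 1 library left out.

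Eef1a1 lost its call at the same log2 difference of 0.39 without a filter (limma, BH adjusted p = 0.0560) and without trend (0.0810), at 0.35 with median-ratio scaling (0.0611), the sex-linked term (0.283) and the Y-linked libraries (0.318), and at 0.24 with replicate 7 as WT (0.618); with 1 library left out it lay between 0.32 and 0.46. Eef2 lost its call at 0.26 without a filter (0.0621) and without trend (0.113), at 0.23 with median-ratio scaling (0.0506), and at 0.22 with the sex-linked term (0.333), in the Y-linked libraries (0.338) and with replicate 7 as WT (0.525); with 1 library left out it lay between 0.23 and 0.29. Eef1g passed, at 0.27, after rescaling (0.0348), and in none of the other 16 alternatives, at 0.20 to 0.34. The difference of Eef1a2, 0.0081, changed sign to -0.027 with median-ratio scaling, -0.019 with quantile scaling, -0.0097 after rescaling, -0.010 with array weights, -0.00077 with replicate 7 as WT and -0.026 with the sex-linked term and in the Y-linked libraries, and lay between -0.014 and 0.046 with 1 library left out (limma, BH adjusted p at least 0.737 throughout). Eef1b2, Eef1d and Eef2k kept their direction and stayed uncalled in all 17 alternatives. The log2 difference of the Eef1a1 to Eef1a2 ratio lay between 0.24 and 0.47 over 11 alternatives. That of the sum of the pair lay between 0.10 and 0.20 over 13. The DKO and WT libraries did not overlap in either quantity, so leaving libraries out could not change the sign, and the sign in those fits adds no support. The cause of these shifts was not tested. No paired analysis was possible because the DKO and WT libraries share no replicate number.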
